A study of Danio rerio with 2 samples.

Results

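The 4 antigen presentation genes described here were followed through the cells of the adult male zebrafish hypothalamus and are cd74a (ENSDARG00000009087), cd74b (ENSDARG00000036628), mhc2dab (ENSDARG00000079105) and b2m (ENSDARG00000053136). They were taken by name, as 4 of the 32057 features listed in each count matrix. The gene mhc2dab stands in the files under its older clone name, si:busm1-266f07.1, and was matched by its identifier. The study compared fish carrying CRISPR/Cas9 mutations in both cholecystokinin genes (CCK1/2-KO) with wild-type fish (WT), in work on how cholecystokinin acts on the reproductive axis. Hypothalami of 30 fish of 6 months were pooled per genotype and dissociated, and 1 single-cell library was made from each pool in droplets. With 1 library a genotype, effects of genotype, of the pooled fish and of the preparation cannot be told apart. Each difference below compares 2 libraries, and every interval is a 95% interval for counting error only.

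MHC class II molecules display peptides from material that a cell has taken up, and they are read by CD4+ T cells. They are carried above all by professional presenting cells, which in brain tissue are microglia, macrophages and dendritic cells. The invariant chain CD74 holds the newly made class II molecule, guards its groove and guides it to endosomes, where proteases of the cathepsin S type cut the chain away. Zebrafish have a pair of invariant chain genes, cd74a and cd74b, and mhc2dab encodes a class II beta chain. The gene b2m encodes beta-2-microglobulin, the light chain of class I molecules, which display peptides from the inside of the cell and are made by nearly every nucleated cell type.

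The CCK1/2-KO library gave 10393 kept barcodes with 52550449 unique molecular identifiers (UMIs), and the WT library 8543 kept barcodes with 47467489 UMIs. Barcodes were placed in classes by raw counts of marker genes, none of which was among the 4 genes or the further antigen presentation genes listed with them. A class is called "like" a cell type because it rests on those markers alone. The CCK1/2-KO and WT libraries held 364 and 278 microglia-like barcodes, 103 and 128 dendritic cell-like barcodes, 132 and 201 T or NK cell-like barcodes, and 179 and 148 vascular endothelium-like barcodes. Of 13 microglial markers 12 had at least 1 UMI over the microglia-like barcodes of each library, and of 12 endothelial markers 10 over the endothelial barcodes. The classes were set by these markers, and neuron-like barcodes of WT also held 12 of the 13, so these counts do not test identity. In at least 10% of the barcodes, 11 microglial markers were found in each library, and 8 and 7 endothelial markers in CCK1/2-KO and WT. The dendritic cell-like class rests on 4 markers and also carried the microglial list, at 4432 CPM (counts per 1000000 UMIs of the cells summed) in CCK1/2-KO and 5251 CPM in WT, so it is not cleanly apart from microglia. Mural cell-like, astroglia-like, oligodendrocyte lineage-like and neuron-like barcodes numbered 175 and 140, 1198 and 975, 388 and 443, and 3708 and 2994. Microglia-like barcodes differed in depth, with a median of 5657 UMIs in CCK1/2-KO and 1774 UMIs in WT. Barcodes with at least 2% of their UMIs from hbaa1, a haemoglobin gene of red blood cells, were called hbaa1-rich if they reached no list. They numbered 1681 in CCK1/2-KO and 1196 in WT, and this rule selects for few marker UMIs. Red blood cells were assumed, without a test, to lack class II transcripts. The level in hbaa1-rich barcodes was therefore taken as the level of free RNA. It is no more than an upper reference where red blood cells make such transcripts themselves. These barcodes were shallow, with medians of 956 UMIs in CCK1/2-KO and 1016 UMIs in WT, so this level may not hold for deeper classes. It also depends on the hbaa1 minimum. With that minimum halved or doubled, cd74a there had 325 or 212 CPM in CCK1/2-KO and 297 or 199 CPM in WT. Another 2067 CCK1/2-KO and 1529 WT barcodes reached neither a list nor the hbaa1 minimum. A further 363 and 491 were set aside because they reached several lists, or a list and the hbaa1 minimum. As a check of the labels, ccka, a cholecystokinin gene, had 163 CPM in CCK1/2-KO and 376 CPM in WT, a log2 ratio of −1.21 (−1.24 to −1.17). A small deletion can leave transcripts that are still counted, so a remaining signal does not go against the label, and this check cannot settle it. The other mutated cholecystokinin gene was not looked at.

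Among the 9 classes with enough barcodes to compare, the invariant chain genes cd74a and cd74b and the class II gene mhc2dab were highest in microglia-like and dendritic cell-like barcodes. In microglia-like barcodes cd74a lay 92.3 times in CCK1/2-KO and 113 times in WT over the level of hbaa1-rich barcodes. T or NK cell-like and vascular endothelium-like barcodes came next, and in summed CPM neurons and oligodendrocyte lineage cells lay under the free-RNA level. The light chain gene b2m had another order, with T or NK cell-like barcodes first and vascular endothelium-like barcodes next. Between the libraries, no member passed a 1.5-fold difference in microglia-like barcodes. In vascular endothelium-like barcodes cd74a, cd74b and mhc2dab stood at 0.407, 0.332 and 0.327 in CCK1/2-KO relative to their WT level.

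**Figure D1:**
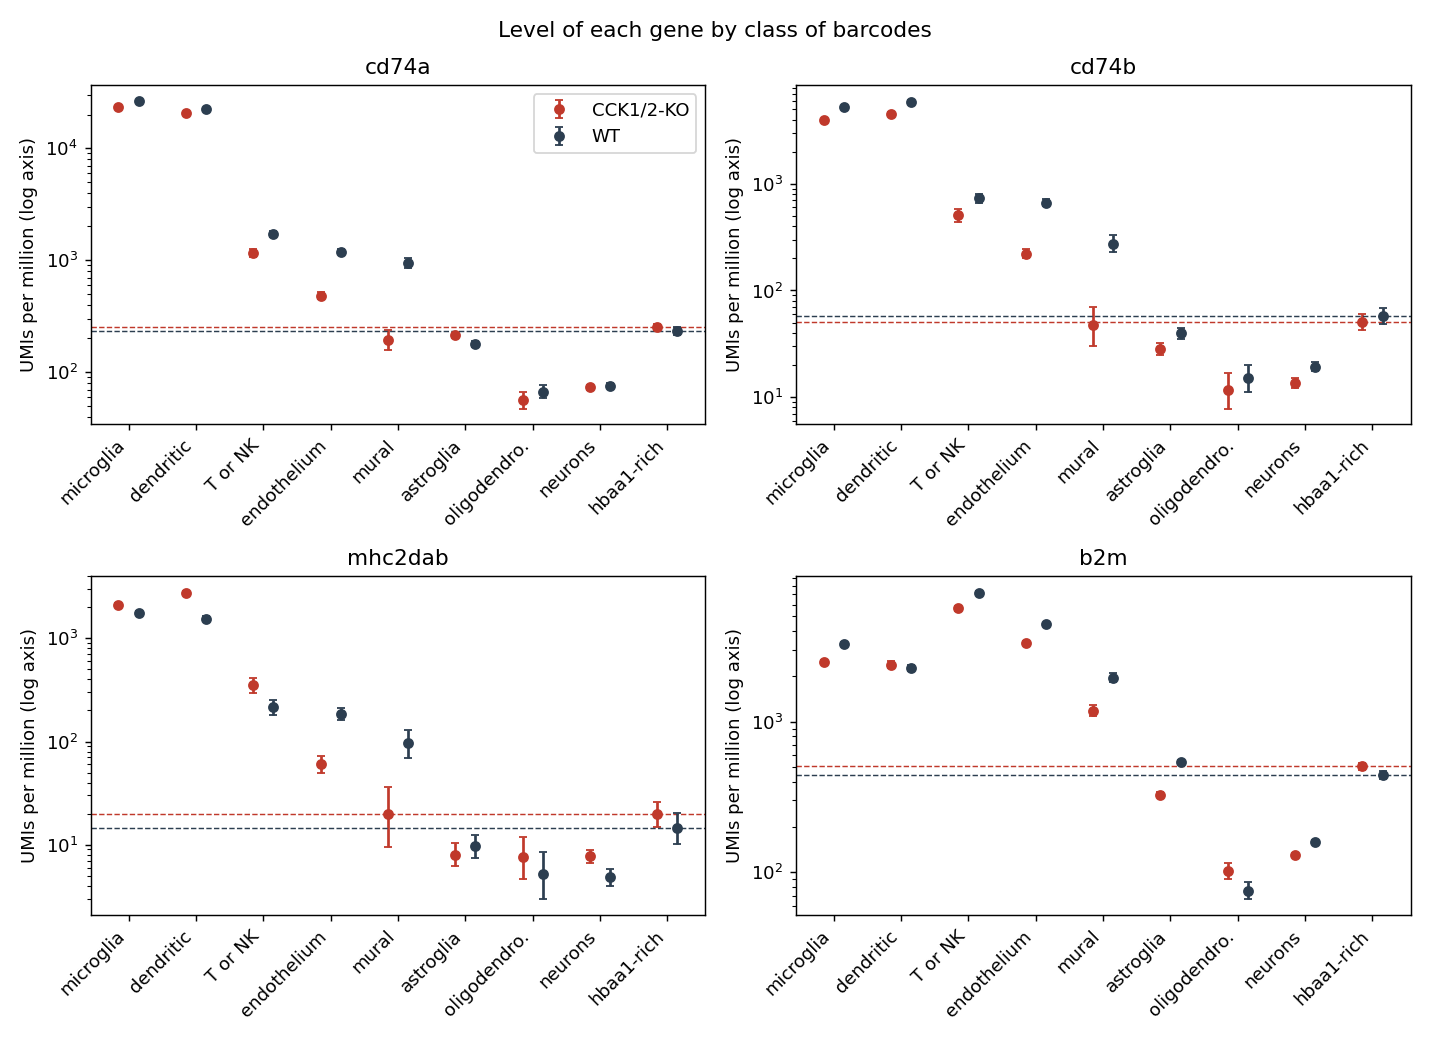
Level of each gene in CPM (log axis) in 9 classes of barcodes, with CCK1/2-KO (red) left of WT (dark); bars are exact Poisson 95% intervals and dashed lines mark the level of hbaa1-rich barcodes in each library. The points of cd74a reach 23246 and 26472 CPM in microglia-like barcodes, and those of neurons lie below the dashed lines.

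Of the invariant chain genes, cd74a had 23246 CPM (23034 to 23459) in microglia-like barcodes of CCK1/2-KO and 26472 CPM (26187 to 26760) in those of WT. Microglia-like barcodes held 65.7% of all cd74a UMIs of the CCK1/2-KO library and 48.8% of those of the WT library. Dendritic cell-like barcodes had 20420 CPM in CCK1/2-KO and 22221 CPM in WT, and the intervals did not overlap those of microglia-like barcodes of the same library. This order rests on summing the barcodes, since the mean over barcodes was 20526 CPM in dendritic cell-like and 20649 CPM in microglia-like barcodes of CCK1/2-KO, and 21238 and 20330 CPM in those of WT. T or NK cell-like barcodes had 1160 and 1717 CPM, and vascular endothelium-like barcodes 483 and 1186 CPM, in CCK1/2-KO and WT. In WT the mural cell-like level of 947 CPM lay below the endothelial level without overlap. In CCK1/2-KO the mural cell-like level of 193 CPM (157 to 236) overlapped both that of astroglia-like barcodes at 213 CPM (202 to 223) and that of hbaa1-rich barcodes at 252 CPM (233 to 272). Neuron-like barcodes had 73.2 and 75.9 CPM and oligodendrocyte lineage-like barcodes 56.3 and 67.2 CPM, against 252 and 234 CPM in hbaa1-rich barcodes. Astroglia-like barcodes lay below that level in summed CPM but not as the mean over barcodes, which was 477 and 444 CPM in astroglia-like and 389 and 417 CPM in hbaa1-rich barcodes. Neuron-like barcodes lay below it by both measures, with means over barcodes of 242 and 259 CPM.

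By the share of barcodes with a cd74a UMI, microglia-like barcodes lay above T or NK cell-like barcodes, as they did in CPM. Dendritic cell-like barcodes lay above microglia-like ones by this measure, with a UMI in 100% of barcodes of both libraries. After thinning each barcode to 1000 UMIs, a cd74a UMI was expected in 98.9% of 293 microglia-like barcodes of CCK1/2-KO and 96.9% of 208 of WT, against 96.7% and 97.1% without thinning. Thinning left out 71 and 70 shallower microglia-like barcodes. The thinned share was 54.2% and 67.9% in T or NK cell-like barcodes and 20.3% and 40.0% in vascular endothelium-like barcodes, against 22.6% and 25.2% in hbaa1-rich barcodes. In the endothelium of CCK1/2-KO the thinned share was thus no higher than in hbaa1-rich barcodes, although its CPM was 1.92 times the free-RNA level. The endothelial share was above the 8.2% of neuron-like and 6.1% of oligodendrocyte lineage-like barcodes of CCK1/2-KO, and near the 19.3% of astroglia-like barcodes. The hbaa1-rich barcodes were much shallower before thinning, so their share is not a like background for the endothelium. The unthinned endothelial shares were 50.3% and 65.5%, at median depths of 8202 and 6350 UMIs, against 30.6% and 36.0% in hbaa1-rich barcodes at median depths of 956 and 1016 UMIs.

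The second invariant chain gene, cd74b, had its highest level in dendritic cell-like barcodes, with 4561 CPM (4391 to 4735) in CCK1/2-KO and 5906 CPM (5745 to 6070) in WT. Microglia-like barcodes had 3942 and 5211 CPM, below the dendritic level without overlap in both libraries. T or NK cell-like barcodes had 508 and 730 CPM and vascular endothelium-like barcodes 222 and 667 CPM, against a free-RNA level of 51.1 and 58.1 CPM. Neuron-like barcodes had 13.6 and 19.3 CPM, which is under that level in both libraries.

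The make-up of the invariant chain UMIs differed between classes. The gene cd74b made up 14.5% (14.2 to 14.8) of the summed cd74a and cd74b UMIs in microglia-like barcodes of CCK1/2-KO and 16.4% (16.1 to 16.8) in those of WT. In hbaa1-rich barcodes the share was 16.9% (14.3 to 19.6) and 19.9% (17.0 to 23.0), and in neuron-like barcodes 15.6% and 20.3%. T or NK cell-like barcodes stood apart, with 30.5% in CCK1/2-KO and 29.8% in WT, as did vascular endothelium-like barcodes, with 31.5% and 36.0%. The lower bounds of their intervals were 27.1% and 27.6% in T or NK cell-like barcodes and 29.0% and 34.04% in vascular endothelium-like barcodes. In both classes, and in both libraries, these intervals overlapped neither the microglial share nor the share in hbaa1-rich barcodes. In CCK1/2-KO the interval of T or NK cell-like barcodes did overlap that of mural cell-like barcodes.

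**Figure D2:**
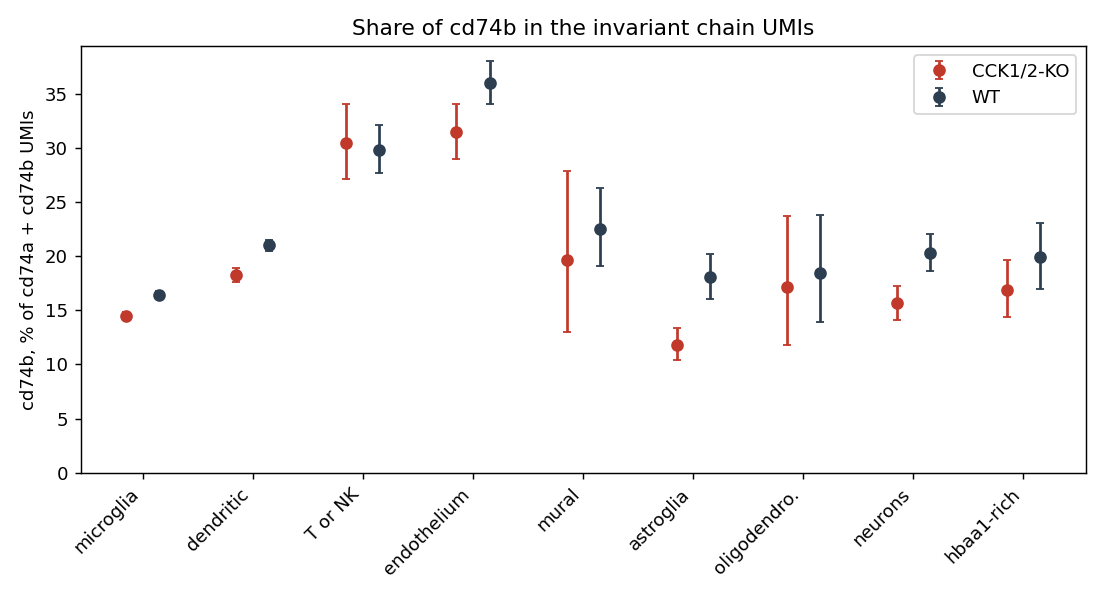
Share of cd74b in the summed cd74a and cd74b UMIs (percent) by class of barcodes, with CCK1/2-KO (red) left of WT (dark) and exact 95% binomial intervals. T or NK cell-like and vascular endothelium-like barcodes lie between 29.8% and 36.0%, and microglia-like barcodes at 14.5% and 16.4%.

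The class II beta chain gene mhc2dab had 2126 CPM (2063 to 2191) in microglia-like barcodes of CCK1/2-KO and 1761 CPM (1688 to 1837) in those of WT. Dendritic cell-like barcodes had 2738 CPM in CCK1/2-KO and 1555 CPM in WT, so that in summed CPM they stood above microglia-like barcodes in CCK1/2-KO and below them in WT. In WT the share of barcodes with an mhc2dab UMI ran the other way, with 82.0% in dendritic cell-like and 58.6% in microglia-like barcodes, or 54.4% and 51.4% after thinning, so the order in WT depends on the measure. T or NK cell-like barcodes had 350 and 215 CPM and vascular endothelium-like barcodes 60.5 and 185 CPM, against a free-RNA level of 19.7 and 14.5 CPM. Unlike cd74a, mhc2dab was not found in nearly all microglia-like barcodes. Its thinned share was 59.2% in CCK1/2-KO and 51.4% in WT. Among microglia-like barcodes of at least 1000 UMIs, 93 of 293 in CCK1/2-KO and 68 of 208 in WT held cd74a but no mhc2dab UMI. The corresponding counts in dendritic cell-like barcodes were 17 of 101 in CCK1/2-KO and 21 of 125 in WT. These counts were not thinned, and microglia-like barcodes were shallower, most of all in WT. The thinned share of mhc2dab was 59.2% in microglia-like and 74.6% in dendritic cell-like barcodes of CCK1/2-KO. In WT these shares were 51.4% and 54.4%. Zebrafish class II genes occur in several similar copies that differ between individuals, so reads may be lost or split between copies, and the mhc2dab count is uncertain to that extent.

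Across barcodes of at least 1000 UMIs the spread of cd74a was wider in microglia-like than in dendritic cell-like barcodes. The median microglia-like barcode had 21131 CPM in CCK1/2-KO and 19583 CPM in WT, with the middle 50% between 14465 and 28529 CPM in CCK1/2-KO and between 9937 and 30028 CPM in WT. In dendritic cell-like barcodes the median was 19359 and 19217 CPM. Their middle 50% lay between 15168 and 23620 CPM in CCK1/2-KO and between 15289 and 24315 CPM in WT. Dendritic cell-like barcodes were deeper, with class medians of 6189 and 7174.5 UMIs, against 5657 and 1774 UMIs in microglia-like barcodes. The part of depth in the spread was not tested. The median of mhc2dab was 1539 CPM in CCK1/2-KO and 655 CPM in WT in microglia-like barcodes, and 2483 and 765 CPM in dendritic cell-like barcodes. In vascular endothelium-like barcodes the median of cd74a was 36.14 CPM in CCK1/2-KO and 289 CPM in WT, and the middle 50% of both libraries began at 0. The endothelial level therefore rested on part of the barcodes. The 3 highest endothelial barcodes held 38.9% of the cd74a UMIs of the class in CCK1/2-KO and 21.8% in WT.

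**Figure D3:**
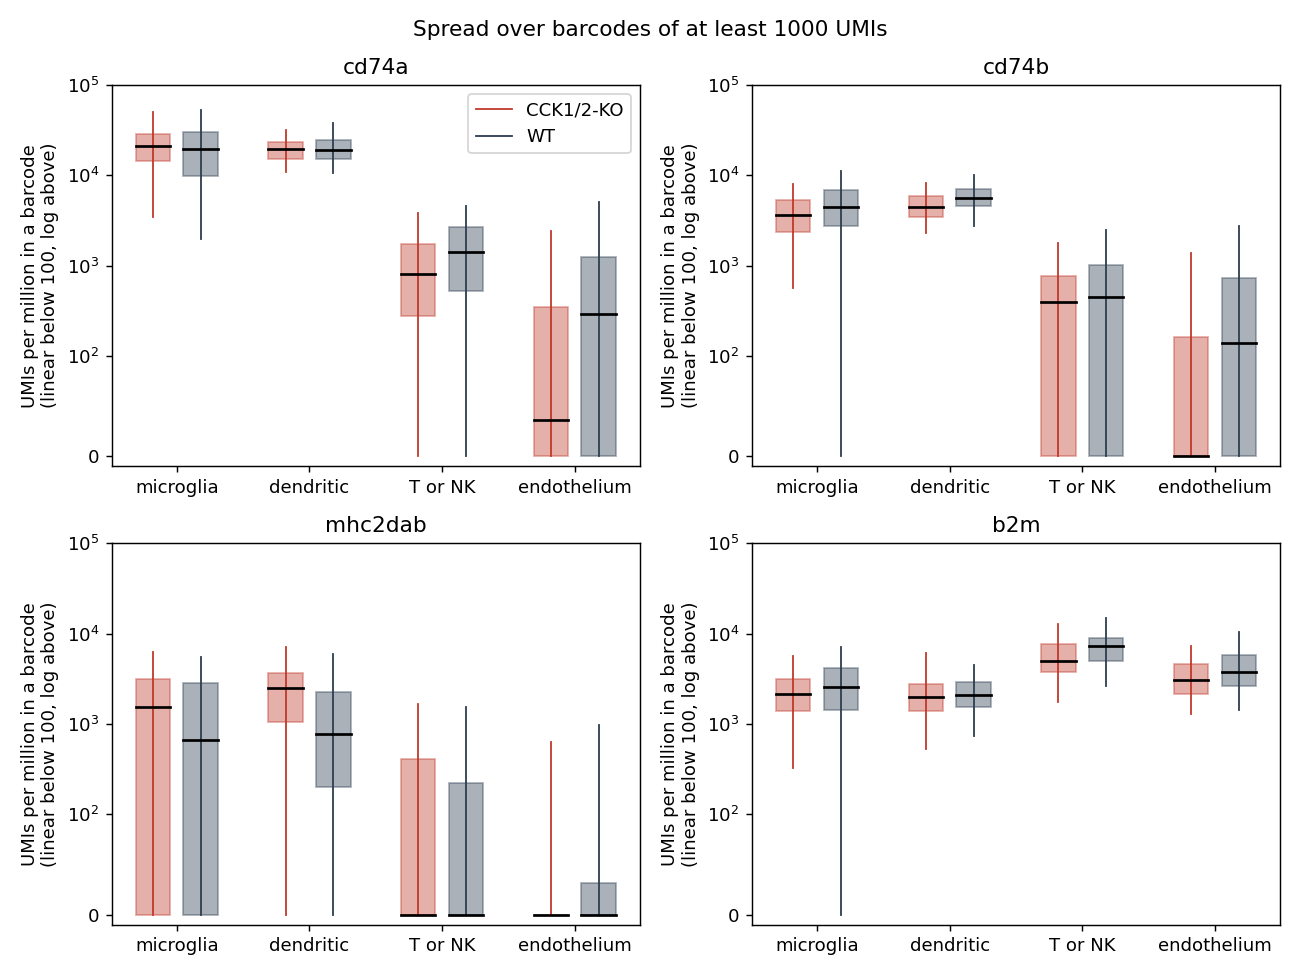
Level in CPM of each gene in single barcodes of at least 1000 UMIs (axis linear below 100 and logarithmic above), with CCK1/2-KO (red) left of WT (dark) in 4 classes; black bars are medians, boxes the middle 50%, and lines the 5th to 95th percentile. The median of mhc2dab in dendritic cell-like barcodes is 2483 CPM in CCK1/2-KO and 765 CPM in WT.

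The light chain gene b2m was found in every class, with its highest level in T or NK cell-like barcodes, at 5656 CPM (5432 to 5888) in CCK1/2-KO and 7163 CPM (6964 to 7367) in WT. Vascular endothelium-like barcodes had 3347 and 4433 CPM, microglia-like barcodes 2499 and 3260 CPM, and dendritic cell-like barcodes 2389 and 2260 CPM. In CCK1/2-KO the intervals of microglia-like and dendritic cell-like barcodes overlapped. Mural cell-like barcodes had 1183 and 1955 CPM, against 507 and 441 CPM in hbaa1-rich barcodes. Astroglia-like barcodes had 327 CPM in CCK1/2-KO and 542 CPM in WT, which is below the free-RNA level in CCK1/2-KO and above it in WT. As the mean over barcodes they lay below it in both libraries, with 431 and 700 CPM against 761 and 719 CPM in hbaa1-rich barcodes. Neuron-like barcodes lay below the free-RNA level in both libraries, with 130 and 159 CPM. Red blood cells of fish are nucleated and can make class I molecules, so for b2m the hbaa1-rich level may hold their own transcripts and is no more than an upper reference.

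The genes whose levels ran most alike with the members were looked for over 18 points, which were 9 classes in each of 2 libraries, among 15945 genes. The points share libraries and free RNA, and the correlations are given as a description. The pattern of cd74a was most like those of grna, a granulin gene (Pearson r = 0.992), mhc2daa, a class II alpha chain gene (0.987), cd74b (0.986), ifi30, a lysosomal thiol reductase gene (0.985), and mhc2dab (0.979). For cd74b the list was mhc2dab (0.988), cd74a (0.986), mhc2daa (0.984), ifi30 (0.977) and mhc2dhb, another class II beta chain gene (0.972). For mhc2dab it was cd74b (0.988), mhc2daa (0.985), mhc2dhb (0.980), cd74a (0.979) and ifi30 (0.971). Among the genes with patterns most like that of b2m were srgn, a proteoglycan gene of granule-bearing blood cells (0.984), the interferon-induced gene ifi35 (0.966), the proteasome activator gene psme1 (0.958) and the interferon regulator gene irf7 (0.955). With cd74a, b2m had an r of 0.748. In microglia-like barcodes the class II genes of these lists did not move together between the libraries. The level of mhc2daa was 1832 CPM in CCK1/2-KO and 2193 CPM in WT, whereas that of mhc2dhb was 2286 and 1160 CPM.

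Within microglia-like barcodes no member passed 1.5-fold between the libraries in summed CPM. The log2 ratio (CCK1/2-KO over WT, as in all that follow) was −0.19 (−0.21 to −0.17) for cd74a, −0.40 (−0.45 to −0.35) for cd74b, 0.27 (0.20 to 0.35) for mhc2dab and −0.38 (−0.44 to −0.32) for b2m. Of the 5067 genes with at least 50 UMIs in these barcodes, 28.1% passed 1.5-fold. Among barcodes of at least 1000 UMIs the median differed more for mhc2dab than the sum did, with 1539 CPM in CCK1/2-KO and 655 CPM in WT. The mean over barcodes gave a log2 ratio of 0.22 for mhc2dab, and barcodes thinned to 1000 UMIs gave 0.33. Microglia-like barcodes of WT were shallower, and the part of depth in the medians was not tested. The ratio of cd74a changed sign when each barcode counted equally, to 0.022 as the mean over barcodes, and its direction is not settled. In dendritic cell-like barcodes mhc2dab was 1.76-fold higher in CCK1/2-KO, with a log2 ratio of 0.82 (0.71 to 0.92), and was the 1 member of 4 past 1.5-fold, against 25.3% of the 3299 genes tested there. The ratios of cd74a and cd74b were −0.12 and −0.37, and that of b2m was 0.08 (−0.02 to 0.18).

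In T or NK cell-like barcodes cd74a and cd74b were lower in CCK1/2-KO than in WT, with log2 ratios of −0.57 (−0.72 to −0.41) and −0.52 (−0.76 to −0.29), and b2m stood at −0.34 (−0.41 to −0.27). The median over the 2958 genes tested in this class was −0.13. The gene mhc2dab was 1.62-fold higher in CCK1/2-KO, at 0.70 (0.36 to 1.04), from 148 and 147 UMIs in 132 and 201 barcodes, and alone of the 4 members it passed 1.5-fold, which 24.4% of those genes did. These calls depended on the settings. With doublets kept mhc2dab was at 0.43, under 1.5-fold. The ratio of cd74a passed 1.5-fold with a stricter cell filter (−0.59), without the 3 highest barcodes (−0.63) and with the free-RNA level subtracted (−0.71). The remaining alternatives changed neither call. These barcodes also carried microglial marker transcripts, at 196 CPM in CCK1/2-KO and 171 CPM in WT over a list of 13 genes, against 104 and 88.8 CPM in hbaa1-rich barcodes. Of the 13 genes, 7 were at 0 in CCK1/2-KO and 5 in WT. The part of microglial RNA in the T or NK cell-like values was not tested.

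In vascular endothelium-like barcodes all 4 members were lower in CCK1/2-KO than in WT, as were 51.1% of the 5480 genes tested in this class. Of the 4 members, 3 passed 1.5-fold, against 23.5% of those genes in either direction and 11.4% in this one. The level of cd74a was 483 CPM (452 to 515) in CCK1/2-KO and 1186 CPM (1126 to 1248) in WT, a log2 ratio of −1.30 (−1.42 to −1.18). Among the genes tested in the endothelium, 1.57% had a ratio lower than that of cd74a. The ratio was −1.59 (−1.76 to −1.42) for cd74b, −1.61 (−1.95 to −1.28) for mhc2dab and −0.41 (−0.46 to −0.35) for b2m. The count of mhc2dab was small, with 114 UMIs in 30 barcodes of CCK1/2-KO and 229 UMIs in 38 barcodes of WT. Without the 3 highest barcodes of each library the ratio of cd74a was −1.68, and that of mhc2dab as the mean over barcodes was −0.77.

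The microglial marker list summed to 43.5 CPM in endothelial barcodes of CCK1/2-KO and 38.0 CPM in those of WT, below the 104 and 88.8 CPM of hbaa1-rich barcodes, with 3 and 6 of its 13 genes at 0. Endothelial barcodes without a single UMI of that list numbered 143 of 179 in CCK1/2-KO and 120 of 148 in WT. In these, cd74a had 277 CPM (249 to 306) in CCK1/2-KO and 1159 CPM (1091 to 1231) in WT, a log2 ratio of −2.07 (−2.24 to −1.90), and the ratio of cd74b was −1.96 (−2.18 to −1.74). The ratio of b2m was −0.47 and that of mhc2dab −1.31 in the same barcodes. Of the endothelial cd74a UMIs, the same barcodes held 377 of 910 in CCK1/2-KO and 1082 of 1466 in WT. Their cd74a interval in CCK1/2-KO overlapped that of hbaa1-rich barcodes, at 252 CPM (233 to 272). For cd74a, cd74b and b2m the difference was at least as large without the barcodes that held microglial markers, and for mhc2dab it was smaller. A barcode without a marker UMI can still hold microglial or dendritic cell RNA. The part of such RNA in the endothelial values was not tested.

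**Figure D4:**
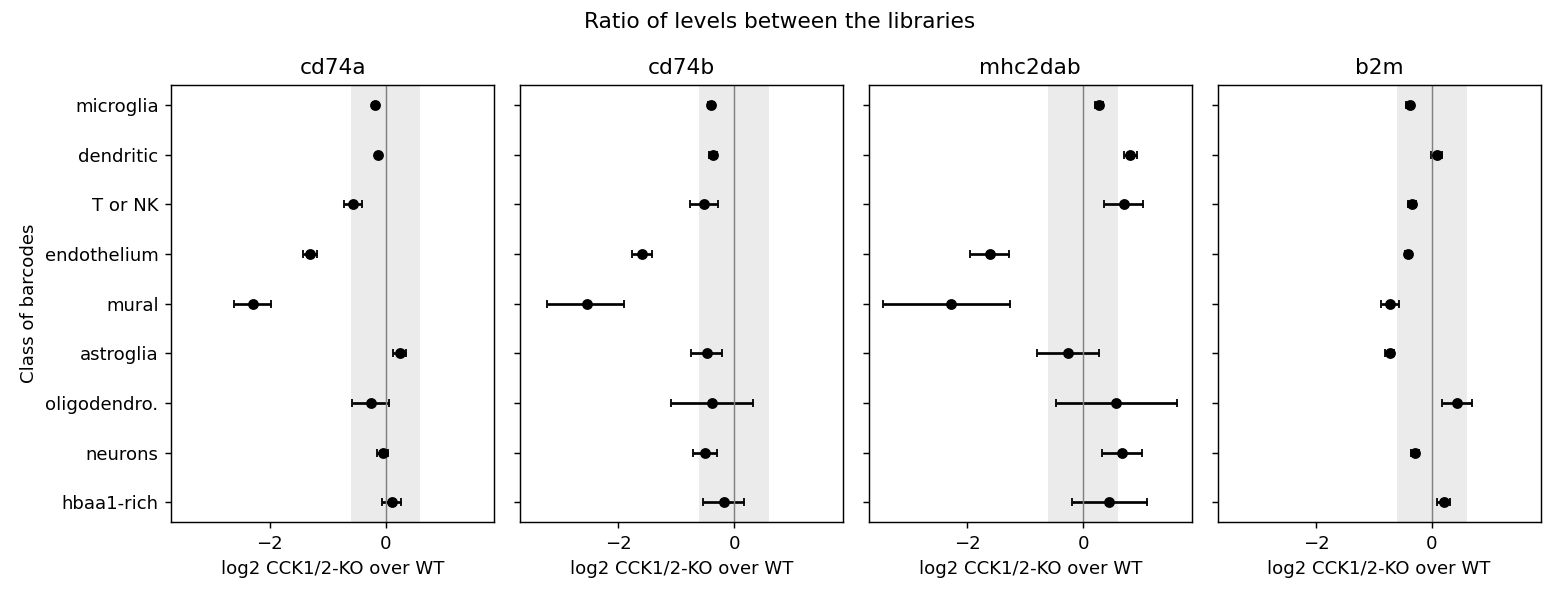
Log2 ratio of the level in CCK1/2-KO over that in WT for each gene and class of barcodes, with exact 95% intervals for counting error; the grey band marks differences under 1.5-fold. In the endothelium cd74a, cd74b and mhc2dab lie at −1.30, −1.59 and −1.61, and in microglia all 4 genes lie inside the band.

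Mural cell-like barcodes, the contractile cells that wrap small vessels, showed the same direction for all 4 members, each past 1.5-fold, against 29.1% of the 2814 genes tested there in either direction and 15.8% in this one. The level of cd74a was 193 CPM in CCK1/2-KO and 947 CPM in WT, a log2 ratio of −2.29 (−2.62 to −1.97). The 3 highest barcodes held 42.9% of these cd74a UMIs in CCK1/2-KO and 52.3% in WT, so the values rest on few barcodes. The ratios of cd74b, mhc2dab and b2m were −2.54, −2.29 and −0.73. In CCK1/2-KO cd74b at 47.4 CPM and mhc2dab at 19.7 CPM were at the free-RNA level. The ratio of mhc2dab rests on 10 UMIs in CCK1/2-KO and 42 UMIs in WT, and 3 barcodes held 76.2% of the WT UMIs. Endothelial markers summed to 268 CPM in mural cell-like barcodes of CCK1/2-KO and 309 CPM in those of WT, and their part in the result was not tested.

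In neuron-like barcodes 1 of 4 members passed 1.5-fold, mhc2dab at 0.67 (0.32 to 1.02), against 11.6% of 16978 genes, at a level below that of hbaa1-rich barcodes. In astroglia-like barcodes b2m passed it, at −0.73 (−0.80 to −0.65), against 15.5% of 12729 genes. In oligodendrocyte lineage-like barcodes 0 of 4 passed, against 16.3% of 9792 genes. In hbaa1-rich barcodes 0 of 4 passed, against 16.8% of 5816 genes, and the ratios of cd74a and cd74b were 0.11 (−0.06 to 0.27) and −0.19 (−0.54 to 0.16). Over all kept barcodes the ratio was −0.09 for cd74a, −0.41 for cd74b, 0.41 for mhc2dab and −0.32 for b2m, so that 0 of 4 passed, against 12.2% of 19934 genes. The highest cd74a count of a barcode was 663 UMIs in CCK1/2-KO, against 2752 UMIs in WT, in 1 barcode that had been set aside for reaching several lists. B cells carry class II molecules in most jawed vertebrates. B cell-like barcodes numbered 8 in CCK1/2-KO and 1 in WT, too few to compare. They held 301 and 14 cd74a UMIs, at 7024 CPM in CCK1/2-KO and 14784 CPM in WT. Lymphatic endothelium-like barcodes numbered 21 and 13 with 7 and 10 cd74a UMIs, and neutrophil-like barcodes 6 and 6 with 5 and 5.

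Of 67 further genes of antigen presentation listed beside the members, 53 were found in the files. On the class II side, microglia-like barcodes had at least 50 UMIs of 7 listed genes. Of these 0 were past 1.5-fold, against 28.1% of all genes tested there, and their median log2 ratio was 0.12. The list did not hold the class II chain genes mhc2dhb and mhc2daa, so the count leaves them out. In microglia-like barcodes mhc2dhb had 2286 CPM in CCK1/2-KO and 1160 CPM in WT, and mhc2daa had 1832 and 2193 CPM. The invariant chain protease genes ctss2.2 and ctss2.1 had 698 and 400 CPM in CCK1/2-KO, and 629 and 368 CPM in WT. The legumain gene lgmn had 365 CPM in CCK1/2-KO and 323 CPM in WT, the activation marker gene cd83 had 256 and 232 CPM, and the cathepsin gene ctsla had 122 and 112 CPM. The intervals of the ratios of ctss2.1, lgmn, cd83 and ctsla held 0. The level of ifi30 was 418 CPM in CCK1/2-KO and 617 CPM in WT, a log2 ratio of −0.56 (−0.71 to −0.42). In dendritic cell-like barcodes ctss2.1 was the 1 gene of 6 past 1.5-fold, against 25.3% of all genes tested there. It had 523 CPM in CCK1/2-KO and 1140 CPM in WT, a log2 ratio of −1.12 (−1.31 to −0.94). Over all kept barcodes, ciita, the master regulator of class II genes, had 85 UMIs in CCK1/2-KO and 42 UMIs in WT, a log2 ratio of 0.87 (0.32 to 1.44). Of these UMIs 36 and 16 were in neuron-like barcodes and 7 and 7 in microglia-like barcodes, where the ratio was −0.68 (−2.42 to 1.06). Over all kept barcodes cd40, a costimulatory receptor gene, had a ratio of 0.67 (0.46 to 0.88). In astroglia-like barcodes the ratio of cd40 was 1.15 (0.66 to 1.66).

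On the class I side, 5 of 13 genes were over 1.5-fold lower in CCK1/2-KO in microglia-like barcodes and 0 were higher, and the median log2 ratio was −0.23, against −0.05 over all 5067 genes tested. Over all genes 16.9% were lower by that much. The counts were 4 lower of 8 in dendritic cell-like barcodes, 3 lower and 1 higher of 9 in T or NK cell-like barcodes, and 5 lower of 13 in vascular endothelium-like barcodes, where 9.67%, 16.8% and 11.4% of all genes were lower by that much. The list was chosen with earlier results of these data known, so nothing is read from these counts or from the median. The class I heavy chain gene mhc1uba had 529 CPM in microglia-like barcodes of CCK1/2-KO and 1255 CPM in those of WT, a log2 ratio of −1.25 (−1.36 to −1.13). It was lower in CCK1/2-KO in each of 9 classes, by −1.80 in dendritic cell-like, −1.57 in T or NK cell-like and −1.86 in vascular endothelium-like barcodes, and by −1.04 (−1.24 to −0.84) in hbaa1-rich barcodes. The heavy chain gene mhc1zba lay at −0.79 in microglia-like, −0.78 in dendritic cell-like, −0.74 in T or NK cell-like and −0.79 in vascular endothelium-like barcodes. The second light chain gene, b2ml, had 1625 CPM in microglia-like barcodes of CCK1/2-KO and 1670 CPM in those of WT, a log2 ratio of −0.04 (−0.12 to 0.04), beside the −0.38 of b2m. The proteasome activator gene psme2 was at −0.68 (−0.99 to −0.37) in microglia-like barcodes, and psme1 at −0.41 (−0.83 to 0.01). The chaperone genes canx, calr3a and pdia3 were at −0.18, −0.23 and 0.15 in these barcodes, with intervals that held 0. In dendritic cell-like barcodes canx was at −0.72 (−1.10 to −0.35) and calr3a at −0.71 (−1.28 to −0.17). In mural cell-like and astroglia-like barcodes mhc1zba was at −1.22 and −0.68, and in astroglia-like barcodes psme1 and psme2 were at −1.26 and −1.46. In hbaa1-rich barcodes psme1 was at −0.77 (−1.38 to −0.18). In neuron-like barcodes the class I gene mhc1zea had 175 UMIs in CCK1/2-KO and 69 UMIs in WT, a log2 ratio of 1.21 (0.80 to 1.64), and nlrc5 and ctss2.2 had log2 ratios of 0.64 and 0.72 at levels of at most 3.26 CPM. In mural cell-like barcodes ctsla had a log2 ratio of 0.70 (0.27 to 1.14). Copies of class I genes can differ between fish, so the counts of mhc1uba, mhc1zba and mhc1zea are uncertain to that extent.

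Genes of the class I processing machinery that sit next to each other were examined after their values were seen. In RefSeq (assembly GRCz12tu, used for gene order alone) psmb8a is followed by psmb12, psmb9a and tap2a, and mhc1uba and tapbp.2 lie before it. The genes psmb8a, psmb9a and psmb12 encode subunits of the immunoproteasome, which cuts proteins into class I peptides, and tap2a encodes a subunit of the peptide transporter. Over all kept barcodes psmb8a had 33 UMIs in CCK1/2-KO and 217 UMIs in WT, a log2 ratio of −2.86 (−3.44 to −2.33). The transporter gene tap2a had 37 and 262 UMIs, at −2.97 (−3.51 to −2.47), and psmb9a had 31 and 199 UMIs, at −2.83 (−3.42 to −2.28). The gene psmb12 had 16 UMIs in CCK1/2-KO and 172 UMIs in WT, at −3.57 (−4.41 to −2.83), and tapbp.2 had 63 and 117 UMIs, at −1.04 (−1.51 to −0.59). Of the 21 genes of the window around psmb8a, 18 had at least 50 UMIs, and 6 of these were over 1.5-fold lower and 2 higher in CCK1/2-KO, against 6.38% lower and 5.80% higher among all genes tested. The window was placed around genes already seen to be lower, and these are the 6, so nothing is read from this count. Of the other genes in the window, mhc1uka had a ratio of −0.45 (−0.96 to 0.04), and tapbp.1, daxx and brd2a had ratios of −0.13, 0.01 and 0.04. The 2 higher genes were hsd17b8, at 0.67 (0.25 to 1.11), and col11a2, at 0.95 (0.19 to 1.75) from 47 and 22 UMIs. The gene psmb13a, next to psmb8a, had 0 UMIs in both libraries. In zebrafish this stretch exists as distinct haplotypes that differ in gene content and sequence, so the counts of these genes are uncertain where the pooled fish carried other copies than the reference.

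**Figure D5:**
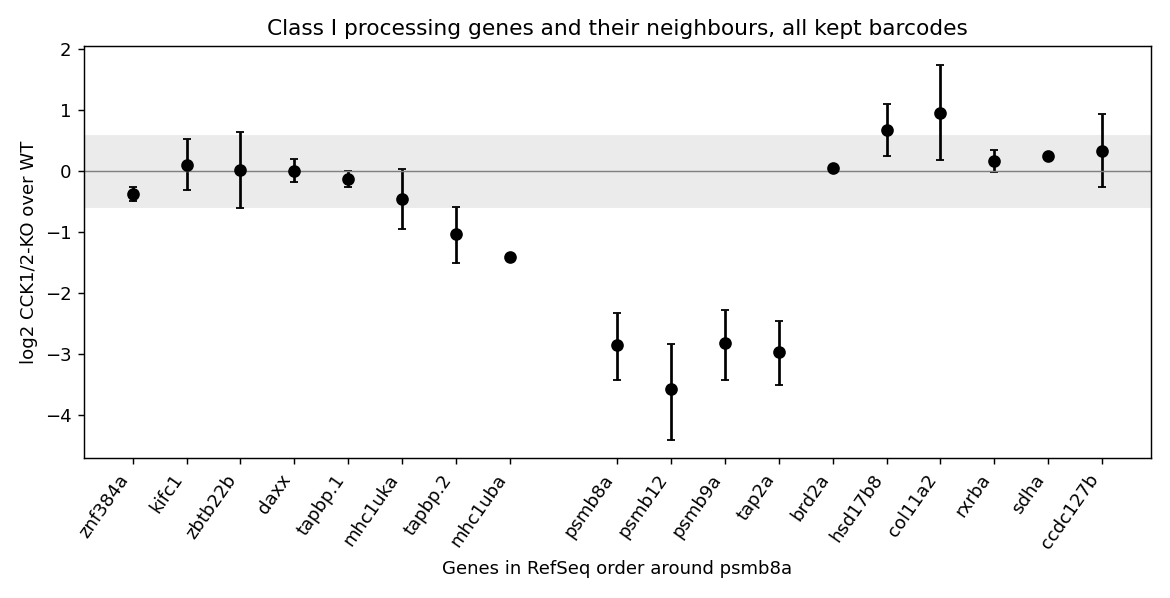
Log2 ratio of CCK1/2-KO over WT over all kept barcodes for genes in RefSeq order around psmb8a with at least 50 UMIs, with exact 95% intervals for counting error; the grey band marks differences under 1.5-fold. The genes psmb8a, psmb12, psmb9a and tap2a lie between −2.83 and −3.57, and brd2a next to them at 0.04.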

How the data were processed

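For each library the authors deposited raw UMI counts per gene and barcode. The submitters' processing notes name Cell Ranger, Seurat and GRCz11, and the counts carried no normalization. A barcode was kept where it had 500 UMIs or more from 250 genes or more and no more than 20% of its UMIs were mitochondrial. Doublets were scored with Scrublet (scanpy 1.11.5) and the highest-scoring barcodes were removed at 0.8% per 1000 barcodes, which took out 1077 CCK1/2-KO barcodes (9.39%) and 701 WT barcodes (7.58%). Their medians of 2090 and 2310 UMIs lay under those of kept barcodes, so single cells may be among them. The libraries shared 52 barcode sequences, treated as different cells.

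A class needed at least 3 UMIs from at least 2 genes of its list and a minimum per 10000 UMIs: 10 for microglia, lymphocytes and endothelium, 5 for dendritic cells, 20 for mural cells, 50 for neurons, and 100 for astroglia and oligodendrocytes. For the list of oligodendrocyte precursors the minimum was 10, and barcodes that reached it or the oligodendrocyte list formed the oligodendrocyte lineage-like class. Of 118 markers 101 were found, and 4 that neurons or glia also carried were left out. The minimums were set after marker counts were seen. Barcodes that reached the microglia and the dendritic lists were called dendritic cell-like.

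Levels are summed UMIs scaled to CPM with exact Poisson intervals, and ratios carry the exact conditional interval (scipy 1.17.1). Shares carry Clopper-Pearson intervals. No p-value is given, because barcodes of 1 library are not replicates. A gene counted as changed past 1.5-fold, among genes with at least 50 UMIs in the class over both libraries. Members, lists and thresholds were chosen with earlier results of these data known. From the further list the text names genes with at least 100 UMIs in microglia, and those past 1.5-fold in any class with at least 100 UMIs there and an interval without 0. No coordinates are given, as the gene table at hand is of another assembly. Of the genes most like the members in pattern, 1 is not reported here.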

Additional observations from a re-analysis of the deposited data

Results flagged for a closer look

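The ratio of mhc2dab ran in opposite directions in different classes of barcodes that all lay above the free-RNA level. On the log2 scale, CCK1/2-KO over WT, it was 0.27 in microglia-like, 0.82 in dendritic cell-like and 0.70 in T or NK cell-like barcodes, against −1.61 in vascular endothelium-like barcodes. The intervals of the ratios lay on opposite sides of 0, but they cover counting error only. In the endothelium 3 barcodes held 37.7% of the mhc2dab UMIs in CCK1/2-KO and 50.7% in WT. As the mean over barcodes the endothelial ratio was −0.77. The difference between classes was not tested, because each class had 1 library per genotype.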

How the results depend on the processing

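No paired analysis was possible because each genotype had 1 library, and for the same reason no replicate could be left out. The 16 log2 ratios of the members in microglia-like, dendritic cell-like, T or NK cell-like and vascular endothelium-like barcodes were recomputed under 152 alternatives, of which 119 stayed inside the counting interval of the reported value, 31 moved outside it and 2 changed sign. The changes of sign were those of cd74a in microglia, to 0.022 as the mean over barcodes and 0.012 with barcodes thinned to 1000 UMIs. Thinning, the pooling of mixed vascular barcodes and the removal of endothelial barcodes with a microglia marker were chosen after the data were seen. In microglia cd74a moved to −0.21 with doublets kept, −0.13 without the 3 highest barcodes and −0.14 centred on the median gene. There cd74b moved to −0.31 both as the mean over barcodes and when thinned, and b2m to −0.50 with the free-RNA level subtracted and −0.30 when thinned. In dendritic cells cd74a moved to −0.19 with the marker minimum doubled, −0.040 without the 3 highest barcodes, −0.16 with a total without mitochondrial, haemoglobin and the 50 highest genes, −0.049 as the mean over barcodes, −0.17 centred and −0.057 thinned, and mhc2dab to 0.93 without the 3 highest barcodes and 0.92 as the mean over barcodes. In T or NK cells b2m moved to −0.21 centred. In the endothelium cd74a moved to −1.68 without the 3 highest barcodes, and with the free-RNA level subtracted cd74a, cd74b, mhc2dab and b2m moved to −2.04, −1.83, −2.07 and −0.49. With mixed vascular barcodes counted in, cd74a, mhc2dab and b2m moved to −1.09, −1.24 and −0.29, and without barcodes holding a microglia marker cd74a, cd74b and b2m moved to −2.07, −1.96 and −0.47. There mhc2dab and b2m moved to −0.77 and −0.34 as the mean over barcodes, and to −0.76 and −0.35 when thinned. The cause of these moves was not tested.

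Of 216 alternative levels, 3 lay over 1.5-fold from the reported one, all in the endothelium without the 3 highest barcodes, with 305 CPM of cd74a and 38.4 CPM of mhc2dab in CCK1/2-KO and 96.5 CPM of mhc2dab in WT. Thinning to 500 UMIs moved 28 of 32 thinned shares, as fewer UMIs were kept. The count of other pathway genes over 1.5-fold lower in CCK1/2-KO depends on the minimum count and the fold. In microglia it was 5, and became 8 with at least 20 UMIs, 3 with at least 200 UMIs, 13 with no minimum and 3 at 2-fold. In dendritic cells it was 5, and became 13 with no minimum and 2 at 2-fold. In T or NK cells it was 3, and became 7 with at least 20 UMIs and 10 with no minimum. In the endothelium it was 6, and became 2 with at least 200 UMIs, 16 with no minimum and 2 at 2-fold. A count of 0 was set to 3 UMIs. With no minimum, a gene seen only in CCK1/2-KO at 1 or 2 UMIs can therefore be among those counted as lower. Counts under 50 UMIs, as for psmb8a in single classes, limit the ratios there.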
